A study of Mus musculus with 10 samples.

Results

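The genes described here build the contractile apparatus of smooth muscle and myofibroblasts. They are Acta2, Actg2, Myh11, Mylk, Tagln, Cnn1, Smtn, Lmod1, Synpo2 and Des, chosen by name as well-known contractile genes, and every probe set annotated to just 1 of them was taken. All 10 genes were found, with 19 probe sets, of which 15 passed a filter on dim probe sets, so that each gene had at least 1 tested probe set among the 13382 genes tested and the 18193 genes on the array with such a probe set. The RNA came from whole lungs of 10 C57BL/6J mice, aged 2 weeks, and each lung was hybridised to its own Affymetrix mouse expression array. The 4 control mice lived in filtered air. The 6 smoke mice entered a smoke chamber together with their mother at the age of 1 day. They spent 1 hour there on each of 7 days and then 2 hours on each of 7 further days, with particulate matter averaging 90 mg per cubic metre. No mouse carried a transgene or deletion per the labels, and sex was recorded as unknown.

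Smooth muscle shortens when calcium activates myosin light chain kinase, which phosphorylates the myosin light chain so that smooth muscle myosin pulls on actin filaments; calponin, transgelin, smoothelin and leiomodin bind and organise those filaments, and desmin anchors the cell's contractile units. In the lung these genes are known from the muscle around airways and vessels. Acta2 is also known from the myofibroblasts that lay down elastin at the tips of growing alveolar septa in the weeks after birth. Whole-lung RNA mixes all these cells, so fewer cells of a type and less RNA per cell cannot be told apart.

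Serum response factor, or SRF, is the transcription factor known to switch on many contractile genes, through a 10-letter DNA motif called the CArG box. Promoter windows of 250 bases before the RefSeq gene start (GRCm38.p6) were read for 7 members: Acta2, Cnn1, Des, Lmod1, Mylk, Smtn and Synpo2. An exact CArG box lay in 0 of the 7 windows and in 1.47% of all 32851 windows. With at most 1 letter off, it lay in 2 of the 7, those of Acta2 and Lmod1, and in 18.6% of all windows. The motif reads the same on both strands, and a match is no evidence of binding. The Acta2 window is shown because Acta2 is the member whose smoke and control arrays stood apart below. It lies at chr19:34255374-34255623 on the minus strand, with both near-CArG stretches in capitals, the first from -84 to -75.

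Acta2: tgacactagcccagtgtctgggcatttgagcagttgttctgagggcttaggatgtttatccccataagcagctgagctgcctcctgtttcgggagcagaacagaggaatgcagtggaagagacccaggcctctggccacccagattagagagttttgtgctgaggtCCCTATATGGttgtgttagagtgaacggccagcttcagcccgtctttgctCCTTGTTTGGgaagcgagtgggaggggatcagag

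Some arrays stood apart. The ratio of 3' to 5' beta-actin intensity, a measure of how complete the labelled RNA is, was 31.6 and 29.4 on smoke arrays 1 and 2. It was 2.18 to 10.3 on the other smoke arrays and 3.96 to 10.4 on the control arrays. The same ratio for Gapdh was high only on smoke array 2, at 9.16. On smoke array 1 it was 4.76, just below the control range of 4.82 to 5.89, so the 2 measures differed for that array. Smoke arrays 5 and 6 had the lowest actin ratios, 2.18 and 2.98, and the lowest Gapdh ratios, 1.40 and 2.13. With a log2 level of 14.1 and 14.0, they were also the only smoke arrays high in Xist, a marker of female cells, as were control arrays 2 and 4 at 14.0 on each. Values below are log2 intensities after quantile normalization unless called deposited. Precision is limited by there being 4 and 6 arrays. The labelled tissue was bright in lung markers, with Sftpc, the alveolar type 2 surfactant gene, at 14.28 to 14.60 across all arrays.

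No contractile gene passed the test. Of 10 members, 0 were called lower and 0 higher (limma, adjusted p of 0.397 to 0.995), where over all genes tested 0.702% were called lower and 0.0224% higher at an adjusted p under 0.05. At an unadjusted p under 0.05 there was 1 member, Acta2, against 10.2% of all genes. Among the 15 member probe sets 0 were called, against 0.551% of all probe sets. The log2 change, smoke minus control, was above 0 for 8 members and below 0 for 2, with a median of 0.22, or 0.05 without control array 3. Over all genes the median was 0.06, and 56.9% were above 0. The members' standard errors were wide, with a median of 0.36 against 0.26 for all genes. The 95% intervals did not exclude a fold of up to 1.26 for Mylk or up to 3.35 for Cnn1. Nor did they exclude a fall to a fold of 0.27 for Myh11 or 0.44 for Tagln.

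**Figure D1:**
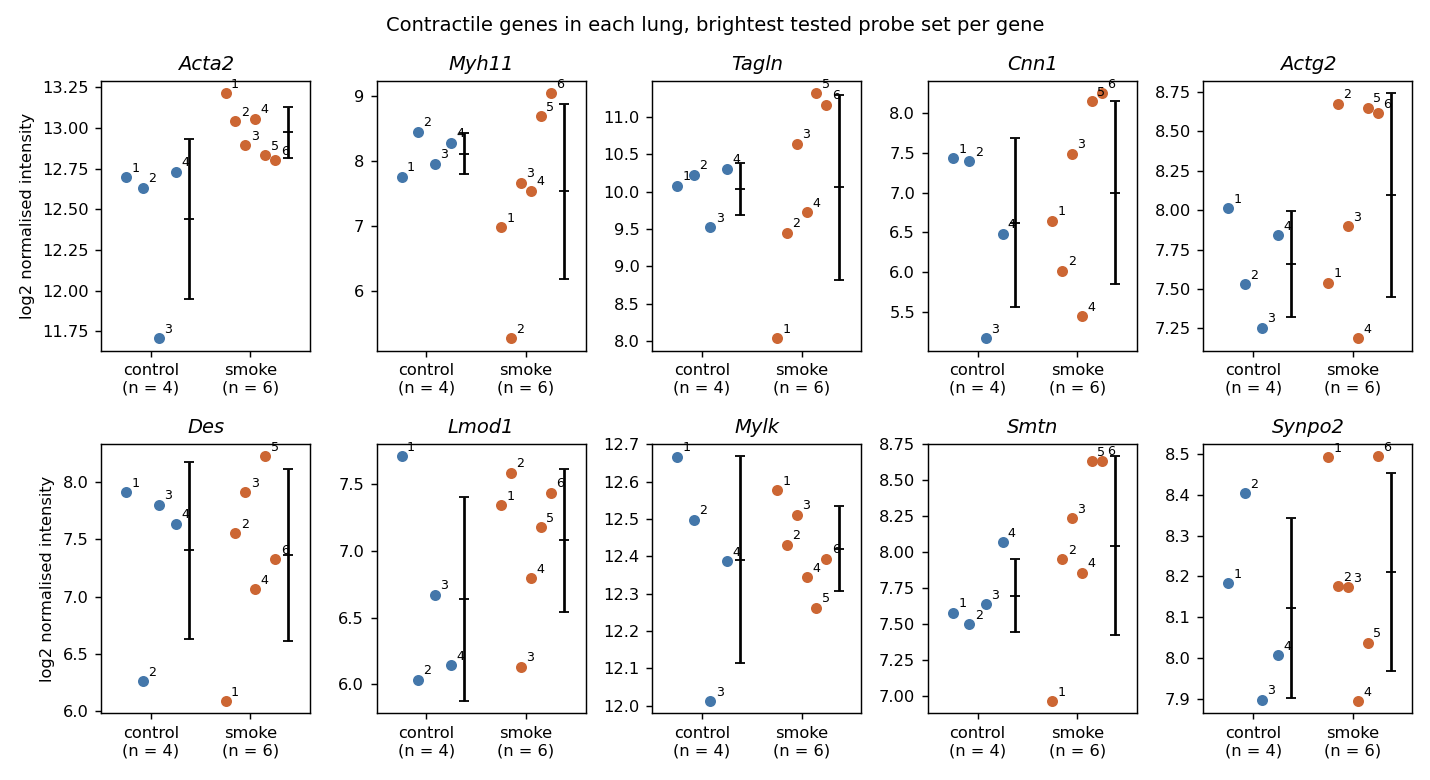
Log2 normalised intensity of the brightest tested probe set of each contractile gene in each lung, with array numbers beside the points and the mean ± SD as a black bar (n = 4 control, n = 6 smoke). Each panel has its own scale. Acta2 is the only panel in which the 6 smoke arrays all lie above the 4 control arrays.

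Acta2 encodes smooth muscle alpha-actin, the usual marker of smooth muscle and of myofibroblasts. It measured 12.70, 12.63, 11.71 and 12.73 in control arrays 1 to 4. In the smoke arrays it measured 13.21, 13.04, 12.90, 13.06, 12.83 and 12.80, in order of array number. Control array 3 was far below the other controls, and the 6 smoke arrays lay in a narrow band above every control. Groups apart in this way, with smoke higher, occurred in 1 of 10 members and in 1.97% of all genes. The log2 change was 0.53 ± 0.20 (limma estimate ± SE), or 1.45-fold with an unadjusted 95% interval of 1.07 to 1.94, and did not pass (adjusted p = 0.397). The separation depended on the scaling: on the deposited intensities the controls ran from 3481 to 6756 and the smoke arrays from 6239 to 12151, and 4 of 6 smoke arrays lay above every control, as after median centring. Without control array 3 the log2 change was 0.29 (limma, adjusted p = 0.787). The probe set carries the suffix that Affymetrix gives to probes shared between transcripts. The other 2 Acta2 probe sets were dim, with deposited intensities of 6.5 to 147.3, and did not pass an exact two-sided permutation test (p = 0.238 and 0.867).

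Actg2 encodes the gamma-actin of smooth muscle, best known from the gut. It measured 8.01, 7.53, 7.25 and 7.84 in the controls and 7.19 to 8.68 after smoke, with a median of 8.26. The groups overlapped, with smoke arrays 2, 5 and 6 above every control and smoke array 4 below every control. Its log2 change was 0.44 ± 0.34 (limma, adjusted p = 0.679), and 0.17 without smoke arrays 5 and 6 (adjusted p = 0.788).

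Myh11 encodes the smooth muscle myosin heavy chain, the motor of mature smooth muscle. It measured 7.76, 8.45, 7.96 and 8.28 in the controls. Smoke arrays 1 to 6 measured 6.98, 5.28, 7.67, 7.54, 8.69 and 9.04. The smoke arrays thus lay on both sides of the controls, 4 below all of them and 2 above, or 2 below and 2 above on the deposited scale, with a control SD of 0.31 and a smoke SD of 1.34. The lowest was smoke array 2, which had a deposited intensity of 35.3 against 203.5 to 337.1 in the controls. The log2 change was -0.58 ± 0.60 (limma, adjusted p = 0.767). Leaving out smoke arrays 1 and 2, where the actin ratio was high, it was 0.12 (adjusted p = 0.940), and without smoke arrays 5 and 6 it was -1.25 (adjusted p = 0.155). The part of RNA quality in this spread was not tested. The other Myh11 probe set was dim, at 8.4 to 63.3 deposited, with an exact two-sided permutation p of 0.181.

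Mylk encodes the kinase that phosphorylates the myosin light chain to start contraction. Its brightest probe set was the steadiest of the members. It measured 12.67, 12.50, 12.01 and 12.39 in the controls and 12.26 to 12.58 after smoke, with a median of 12.41. No smoke array lay outside the control range on this scale. As deposited 1 lay above every control, and after median centring 1 lay below every control. Its log2 change was 0.03 ± 0.14 (limma, adjusted p = 0.959), with a 95% interval of -0.28 to 0.34. The pooled SD within groups, 0.19, was at percentile 7.58 among all genes tested. A second tested probe set of Mylk differed from the first in the 2 smoke arrays with high actin ratios. It lay 1.26 to 1.41 log2 units below the brighter one in the controls and 1.06 to 1.38 below it in smoke arrays 3 to 6, but 2.11 and 3.09 below it in smoke arrays 1 and 2. Its own log2 change was -0.28 ± 0.36 (limma, adjusted p = 0.808). The remaining Mylk probe set was dim (two-sided exact permutation p = 0.952).

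**Figure D2:**
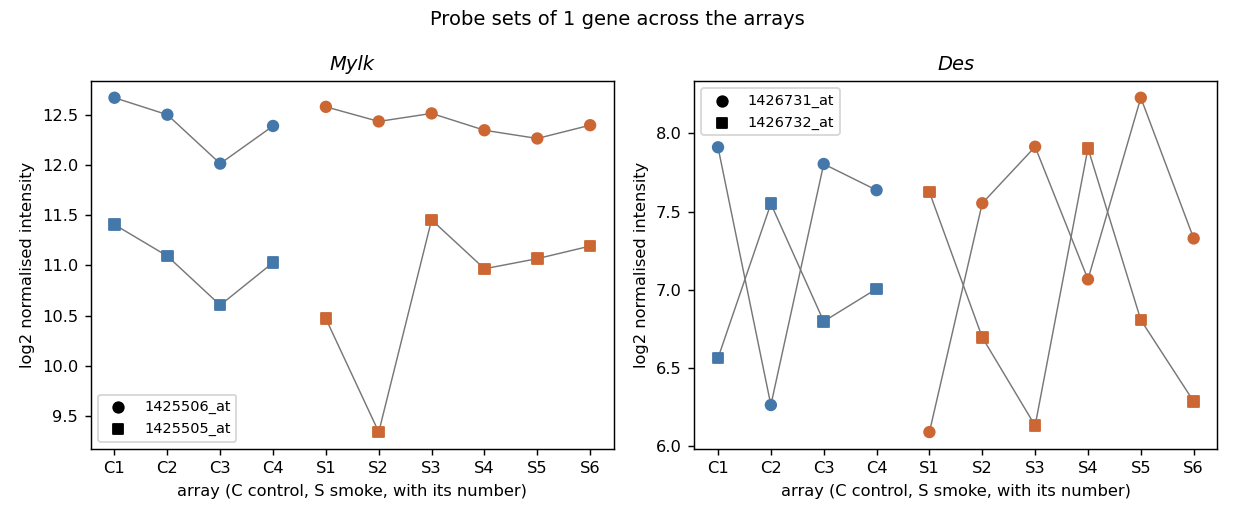
Log2 normalised intensity of both tested probe sets of Mylk (left) and of Des (right) on each array, control in blue and smoke in orange. The Mylk probe sets run in parallel except on smoke arrays 1 and 2, where the gap widens to 2.11 and 3.09, and the Des probe sets cross repeatedly.

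Tagln encodes transgelin, or SM22-alpha, an early and abundant actin-binding protein of smooth muscle. It measured 10.08, 10.23, 9.53 and 10.31 in the controls. In smoke arrays 1 to 6 it measured 8.04, 9.45, 10.64, 9.73, 11.32 and 11.16. The smoke lungs spread over more than the whole control range, 3 above all controls and 2 below, with deposited intensities of 313.6 to 2641 against 716.0 to 1293 in the controls. The log2 change was 0.02 ± 0.55, with a 95% interval of -1.18 to 1.22 (limma, adjusted p = 0.995). The smoke SD was 1.24 and the control SD 0.35, a difference in spread that was not tested. Leaving out smoke arrays 1 and 2 gave 0.67 (adjusted p = 0.491), and leaving out arrays 5 and 6 gave -0.57 (adjusted p = 0.454).

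Cnn1 encodes calponin, which binds actin and dampens myosin's motor activity. It measured 7.43, 7.39, 5.17 and 6.49 in the controls and 5.45 to 8.24 after smoke, with a median of 7.07. The highest values were 8.14 and 8.24, again in smoke arrays 5 and 6, and the lowest control was again control array 3. The log2 change of 0.38 ± 0.63 did not pass (limma, adjusted p = 0.861) and was -0.10 without control array 3, 0.71 when smoke arrays 1 and 2 were left out, and -0.22 when arrays 5 and 6 were.

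Smtn encodes smoothelin, an actin-binding protein of fully contractile smooth muscle cells. It measured 7.58, 7.50, 7.64 and 8.07 in the controls. Smoke arrays 1 to 6 measured 6.96, 7.95, 8.24, 7.86, 8.63 and 8.63. Array 1 was below every control and arrays 3, 5 and 6 were above every control. The log2 change was 0.35 ± 0.32 (limma, adjusted p = 0.736), 0.64 when smoke arrays 1 and 2 were left out (adjusted p = 0.328), and 0.055 when arrays 5 and 6 were (adjusted p = 0.924).

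Lmod1 encodes leiomodin, which starts new actin filaments in smooth muscle. It measured 7.71, 6.03, 6.67 and 6.14 in the controls and 6.13 to 7.59 after smoke, with a median of 7.26. Every smoke array lay inside the control range, since control array 1 was the highest of all 10. On the deposited scale smoke array 1, at 215.7, lay above control array 1, at 195.7. The log2 change was 0.44 ± 0.39 (limma, adjusted p = 0.731), and ran from 0.24 without control array 2 and 0.27 without control array 4 to 0.80 without control array 1.

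Synpo2 encodes synaptopodin 2, also called myopodin, an actin-bundling protein of muscle. Its brightest probe set measured 8.18, 8.40, 7.90 and 8.01 in the controls and 7.90 to 8.49 after smoke, with a median of 8.17, so the groups overlapped. The log2 change was 0.09 ± 0.20 (limma, adjusted p = 0.900). The 3 other tested probe sets gave 0.17 ± 0.18, 0.75 ± 0.41 and -0.05 ± 0.23, and none passed (limma, adjusted p = 0.776, 0.560 and 0.955). The probe set with the largest value was the dimmest of the 4, with deposited intensities of 42.8 to 261.4, and was highest in smoke arrays 1, 2 and 4, each above every control.

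Des encodes desmin, the intermediate filament protein shared by smooth, cardiac and skeletal muscle. Its brighter probe set measured 7.91, 6.26, 7.80 and 7.64 in the controls. It measured 6.09, 7.55, 7.91, 7.07, 8.23 and 7.33 in smoke arrays 1 to 6. Control array 2 and smoke array 1 were low, and the groups overlapped. The log2 changes were -0.04 ± 0.44 and, for the other probe set, -0.07 ± 0.39 (limma, adjusted p = 0.984 and 0.964). On control array 2 and smoke array 1, where the first was low, the second measured 7.55 and 7.62. With group means removed, Pearson's r was -0.71 and Spearman's rho -0.60 (n = 10, exact permutation p = 0.0288 and 0.114). Among 8 pairs of probe sets of 1 gene, the adjusted p-values (exact permutation) were 0.115 and 0.455, and r was -0.53 without the 2 arrays farthest from the median. Of the other 7 pairs, 1 of Synpo2 passed by r but not by rho, at an r of -0.84 and a rho of -0.77 (n = 10, exact permutation, adjusted p = 0.0426 and 0.208), and -0.79 without the 2 farthest arrays. It joined the second brightest and the dimmest probe set. Neither pair passed by both measures, so an opposite course of these probe sets was not established.

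**Figure D3:**
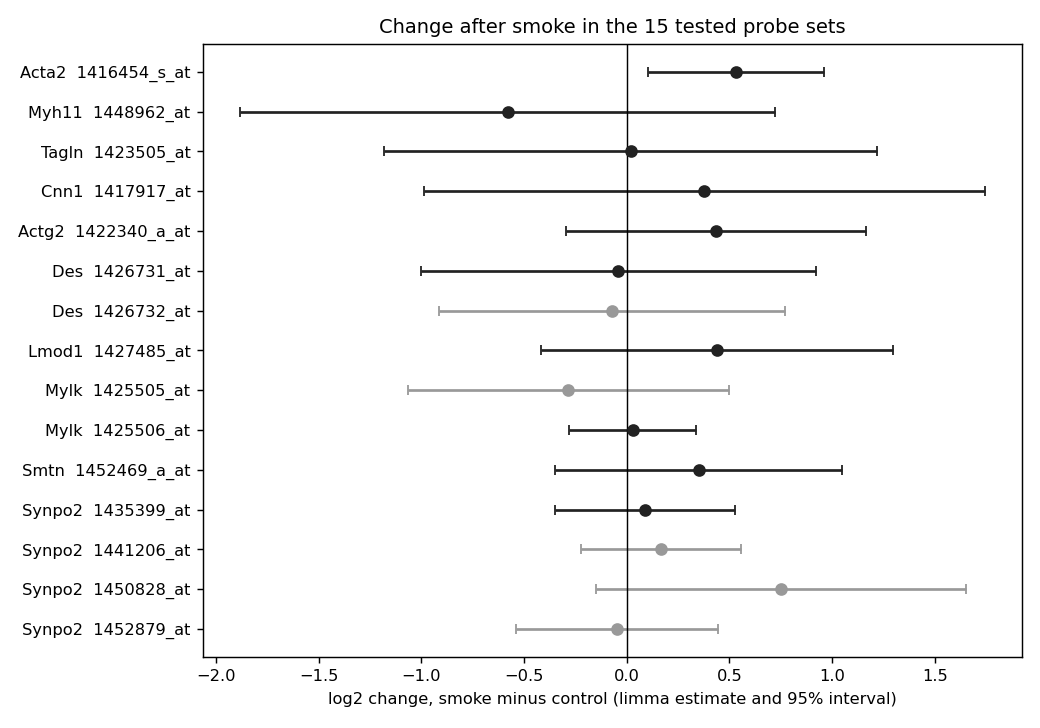
Log2 change from control to smoke with its 95% interval (limma, unadjusted) for the 15 tested probe sets of the contractile genes, the brightest of each gene in black and the others in grey. All intervals but that of Acta2 cross 0, and none of the probe sets passed after adjustment.

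Several members shared their highest lungs. Smoke arrays 5 and 6 were the highest arrays of all 10 for 4 members, Myh11, Tagln, Cnn1 and Smtn. The share of all genes with this order was not counted. Other members differed: Acta2 was highest of all arrays on smoke array 1, at 13.21, and Actg2 on smoke array 2, at 8.68, and among the smoke arrays Mylk was highest on array 1 and Lmod1 on array 2. Averaged over the 10 members, smoke arrays 5 and 6 lay 0.68 and 0.70 log2 units above the control mean. The other smoke arrays lay between -0.32 on array 1 and 0.24 on array 3. Among the controls, array 3 was the lowest for 6 of 10 members and averaged -0.35, and the others averaged -0.02 to 0.29. How often control array 3 was the lowest control over all genes was not counted. Smoke arrays 5 and 6 are also the pair with the lowest actin ratios and high Xist. Control arrays 2 and 4, high in Xist too, averaged -0.02 and 0.08, inside the range of the other controls. With the Xist level as a covariate the median log2 change of the members was 0.27, and with the log2 actin ratio it was 0.30, and 0 members were called in either fit. High values on smoke arrays 5 and 6 were not confined to contractile genes. Markers of alveolar type 2 cells also summed highest of all 10 arrays there, at intensities of 79361 and 75877. Among smoke arrays, the type 1, endothelial, leukocyte, pericyte, cardiac and skeletal muscle marker sums were highest there too. The fibroblast and myofibroblast sum was not, at 51754 and 51727 against 57435 to 58808 on smoke arrays 2 to 4 and 50488 on array 1. The mesothelial sum was highest on smoke array 2. For SRF and its cofactors, smoke array 3 lay between arrays 5 and 6. The sum of the other contractile machinery genes listed below was lowest among smoke arrays on arrays 5 and 6, at 126524 and 125560. These values lay inside the control range of 124849 to 133782, and smoke arrays 1 to 4 were at 141696 to 152936. The parts of sex and RNA quality in the pattern of smoke arrays 5 and 6 were not tested separately, since both go together there.

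**Figure D4:**
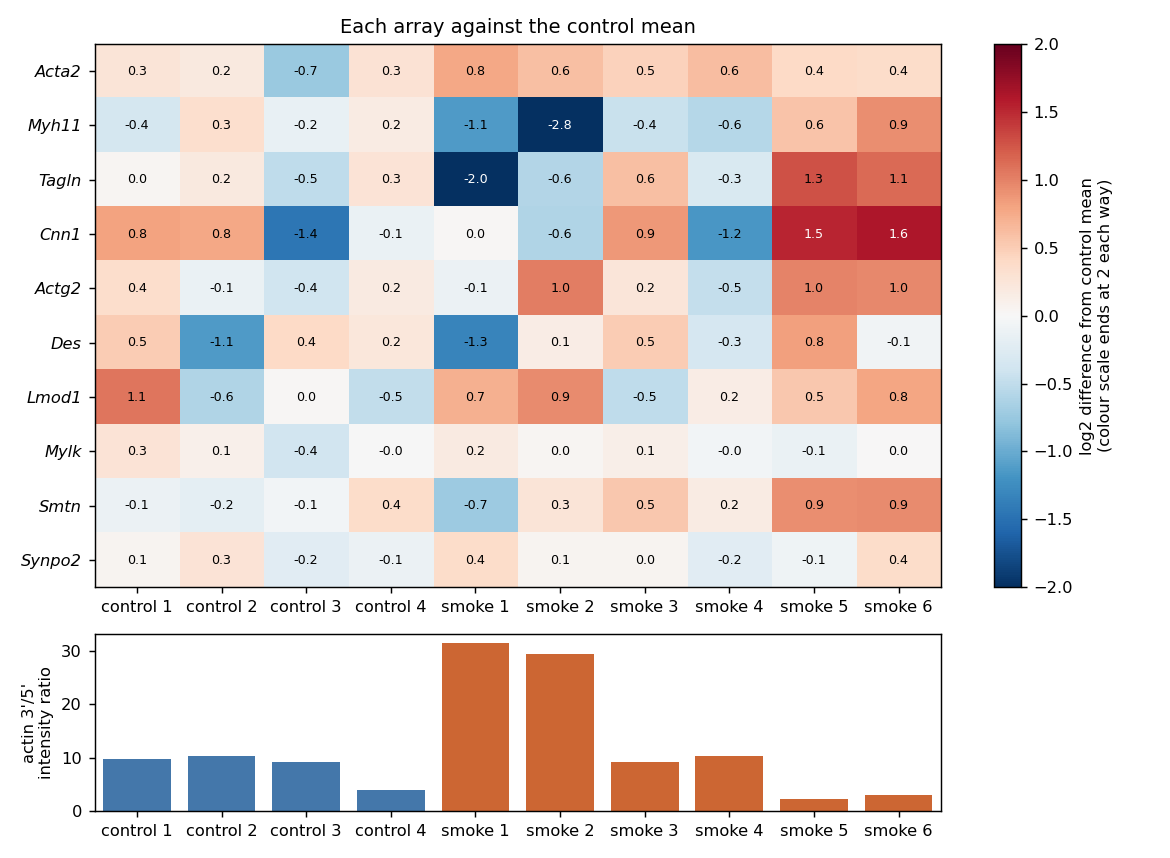
Log2 difference of each array from the control mean for each contractile gene (colour and number, upper panel) and the ratio of 3' to 5' beta-actin intensity on the same arrays (bars, lower panel). Myh11 and Tagln are lowest on smoke arrays 2 and 1, which have ratios of 29.4 and 31.6, whereas Acta2 is highest on smoke array 1 and Actg2 on smoke array 2.

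The members ranged from among the most variable genes within groups to among the least, without a test of that spread. The pooled SD of Cnn1, Myh11 and Tagln was 1.11, 1.08 and 1.00, at percentiles 97.7, 97.3 and 96.2 among all genes tested. Des, Lmod1, Actg2 and Smtn were at percentiles 89.1, 81.4, 73.2 and 69.0. Acta2, Synpo2 and Mylk were at percentiles 33.4, 14.2 and 7.58.

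Pairs of members were compared over the 10 arrays with group means removed, and 31 of 45 pairs had an r above 0, with a median of 0.14. Tagln and Smtn had the smallest p, with a Pearson's r of 0.94 and a Spearman's rho of 0.76 (n = 10, exact permutation within groups, p = 0.00243 and 0.0345). Adjusted over the 45 pairs these were 0.109 and 0.461, and r was 0.79 without smoke arrays 1 and 5. Myh11 and Tagln had a rho of 0.89 and an r of 0.67 (exact permutation p = 0.00359 and 0.113, adjusted 0.161 and 0.476), and r was 0.82 without smoke arrays 2 and 6. Acta2 had its highest r with Mylk. That pair had an r of 0.84 and a rho of 0.68 (exact permutation p = 0.0351 and 0.0512), with 0.316 and 0.461 when adjusted over the 9 pairs with Acta2, and an r of 0.60 without control array 3 and smoke array 6. No pair passed after adjustment by either measure, and all pairs share the arrays' RNA quality.

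The genes outside the list whose group-centred values followed the mean of the members most closely over the 10 arrays were Arfrp1, Zc3h18, Mark3, Sbf1 and Ptgfrn. Their Pearson's r was 0.983, 0.983, 0.980, 0.973 and 0.973, and since they were picked for this value no p is given. Arfrp1 measured 10.82 and 10.81 on smoke arrays 5 and 6 and 9.96 to 10.42 on the other smoke arrays. None of the 5 passed the test (limma, adjusted p of 0.604 to 0.893). Each member is part of the mean, so some likeness to it is built in. The r with the mean was 0.88 for Tagln, 0.87 for Cnn1, 0.79 for Smtn and 0.74 for Actg2. It was 0.66 for Myh11, 0.51 for Des, 0.18 for Synpo2, 0.15 for Lmod1, 0.12 for Mylk and 0.01 for Acta2.

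Other parts of the contractile machinery were read from a list of 32 genes, 30 of which had a tested probe set. None was called lower or higher, and the median log2 change was 0.15. Before adjustment 5 genes had a p under 0.05, all higher after smoke, where over all genes tested 5.75% were higher and 4.47% lower at that threshold. Of the 5, the smallest p belonged to Itga5, a fibronectin receptor subunit, Ppp1r12b, a targeting subunit of myosin phosphatase, and Cnn2, the calponin of non-muscle cells. Their log2 changes were 1.00 ± 0.34, 0.66 ± 0.23 and 0.42 ± 0.17 (limma, adjusted p = 0.364, 0.388 and 0.444). Myl9, the myosin light chain that the kinase phosphorylates, and the tropomyosins Tpm2 and Tpm1 were at 0.43 ± 0.40, 0.86 ± 0.49 and -0.23 ± 0.42 (limma, adjusted p = 0.743, 0.571 and 0.872). Like Tagln, these 3 spread widely among smoke arrays, with SDs of 0.88, 1.02 and 0.91 against 0.25, 0.63 and 0.30 in the controls. Itga5, Ppp1r12b and Cnn2 had smoke SDs of 0.50, 0.36 and 0.27 against 0.59, 0.32 and 0.26. These differences in spread were not tested.

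Among 16 genes for SRF, its cofactors and the Notch, GATA and YAP regulators listed with them, 0 were called and the median was -0.04. Srf itself was at 0.73 ± 0.26, with 4 of 6 smoke arrays higher than all controls (limma, adjusted p = 0.382). Myocd, the muscle-specific partner of SRF known as myocardin, had the lowest value of the list, -1.06 ± 0.64, with a control range of 7.25 to 7.78 and a smoke range of 3.98, the floor, to 8.03 (limma, adjusted p = 0.589). Jag1, a Notch ligand, was at -0.44 ± 0.18 and Heyl, a Notch target of vascular muscle, at 0.42 ± 0.18 (limma, adjusted p = 0.439 and 0.480).

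Cells that share contractile genes were read through marker lists. Of 12 pericyte markers 0 were called, with a median of 0.20, and the list's summed intensity was 31796 to 44722 in controls and 35783 to 43573 after smoke. Pdgfrb, the receptor that marks pericytes, was at 0.32 ± 0.15, with Mcam and Abcc9 at 0.36 ± 0.16 and 0.56 ± 0.26 (limma, adjusted p = 0.511, 0.492 and 0.511). Of 14 tested fibroblast and alveolar myofibroblast markers, with Fgf18 and Fgf10 under the filter, 0 were called and the median was 0.37. Their summed intensity was 42559 to 47626 in controls and 50488 to 58808 after smoke. Such a sum of linear intensities weighs the brightest genes most, and its separation was not tested. Before adjustment 4 of the 14 were higher and 0 lower at a limma p under 0.05, where over all genes 5.75% were higher. The smallest p belonged to the Wnt ligands Wnt2 and Wnt5a and to Eln, which encodes elastin, at 0.98 ± 0.21, 1.47 ± 0.42 and 0.55 ± 0.22 (limma, adjusted p = 0.0824, 0.233 and 0.443). Pdgfra, the receptor of alveolar myofibroblast precursors, was at -0.22 ± 0.34 (limma, adjusted p = 0.846).

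Striated muscle, which shares Des with smooth muscle, varied between the lungs. Of 15 tested cardiac markers 0 were called and the median was -0.11, and the summed intensity ran from 6060 to 10428 in control lungs and from 3883 to 16950 in smoke lungs, highest on smoke array 5. Actn2 was under the filter. Myh6, the atrial myosin found in the muscle sleeves of pulmonary veins, was at -1.19 ± 0.36 (limma, adjusted p = 0.283), the smallest p of that list, followed by Ankrd1 at 0.73 ± 0.30 and Sln at -1.64 ± 1.06 (limma, adjusted p = 0.459 and 0.620). Actc1, cardiac alpha-actin, was at 0.31 ± 0.42 (limma, adjusted p = 0.825). Of 14 skeletal muscle markers, 9 were under the filter. The 5 that were tested summed to 371 to 855 on 5 smoke arrays and to 845 to 1152 on 3 control arrays, but to 17386 on smoke array 5 and 9414 on control array 1. None was called (median -0.75), and those with the smallest p were Mb, Atp2a1 and Mylpf at -1.70 ± 1.25, 0.38 ± 0.39 and -1.14 ± 1.53 (limma, adjusted p = 0.665, 0.766 and 0.822). Acta1, skeletal alpha-actin, was under the filter, and its deposited intensity ran from 4.1 to 2497 in control lungs and from 4.1 to 8666 in smoke lungs (exact two-sided permutation p = 1). The brighter Des probe set was highest among controls on control array 1, at 7.91, and highest in all on smoke array 5, at 8.23. The other was lowest among controls on control array 1, at 6.56, and measured 6.81 on smoke array 5. The part of striated muscle in these values was not tested.

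Some genes of these lists passed under other settings in which many more genes passed overall. Without smoke arrays 5 and 6, 324 of 13382 genes were called lower and 418 higher, against 94 and 3 with all arrays. Of the partner and marker lists, 10 genes passed in that fit, a count not tested against the share over all genes. Srf was at 1.02, Wnt2 at 1.18, Wnt5a at 2.02 and Tgfbi, a matrix protein gene, at 1.76 (limma, adjusted p = 0.0176, 0.00771, 0.00235 and 0.000189). Myh6 was at -1.55, Sln at -2.98 and Mb at -3.23 (limma, adjusted p = 0.0243, 0.0175 and 0.0211), and Clic5, Eng and Cd79a also passed. With the actin ratio as a covariate 220 genes were called lower and 151 higher. Of the lists 6 genes passed, namely Wnt2, Wnt5a, Tgfbi, Eln, Myh6 and Calcrl, again not tested against the share over all genes. None of the 10 contractile genes passed in either fit. Every smoke array lay below every control for 0 of the 10 contractile genes and for 2.11% of all genes.

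**Figure D5:**
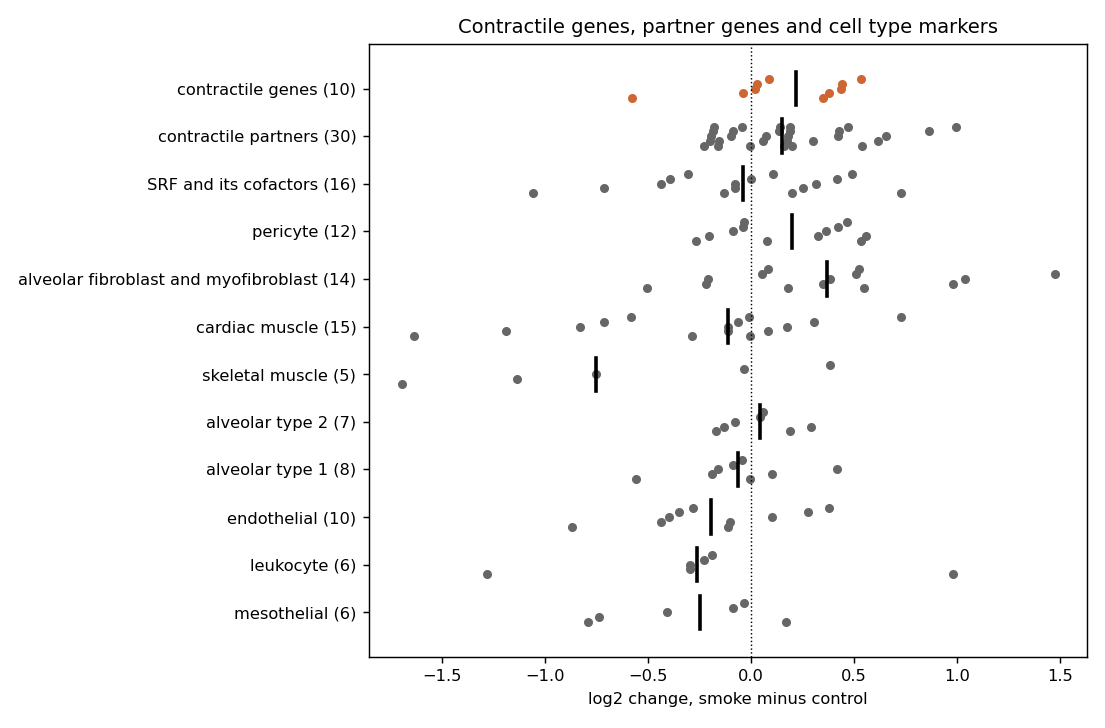
Log2 change from control to smoke for every tested gene of the contractile list (orange) and of the partner and marker lists (grey), with the number of genes in brackets and the median of each list as a black line. The contractile genes centre on 0.22 and the fibroblast and myofibroblast markers on 0.37, and 0 genes of these lists passed the test.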

How the data were processed

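The authors deposited 1 linear intensity per probe set and array. RNA was extracted with Trizol and amplified and labelled as cRNA, per the labels' protocols; the summarising program is not given in the sources used here. Non-positive values were set to the smallest positive one, log2 was taken, quantile normalization was applied, and a floor was set at percentile 10 (intensity 15.8). Of 45101 probe sets, 64 controls were left out and the upper 60% by mean were tested, 27022 in all. Names came from the platform annotation, and a gene was represented by its brightest tested probe set with 1 symbol. The comparison of the groups was two-sided, with R 4.3.3 and its package limma 3.58.1 (variance trend, Benjamini-Hochberg adjustment, threshold 0.05). Probe sets under the filter had exact permutation tests over arrays, where 0.00476 is the smallest p. Correlations used all 17280 within-group orders. The fit was tested on simulated data with 50 probe sets changed by each amount. It called 20% of those with a true log2 change of -1 and 22% at 1. At -2 and 2 it called 66% and 78%, so many changes of such size would be missed. The members and lists were chosen with earlier results of these data known. Named genes were all members, fixed examples, the 3 smallest p-values of each list and the 5 genes closest to the members' mean. Nothing in the labels gives litters, so the p-values reflect only how these arrays varied, which may be partly technical. Alternatives changed the scaling, floor, filter, covariates, probe set choice and arrays used. Promoter sequences came from RefSeq.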

Additional observations from a re-analysis of the deposited data

Results flagged for a closer look

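Of 20 groups of values looked at, the control and the smoke arrays of each of the 10 contractile genes, 2 held an array far from the others, where chance gives about 1 in 20. Acta2 on control array 3, at a log2 level of 11.71, lay below the other controls by a gap of 0.90 of the group's range. Des on control array 2, at 6.26, lay below the other controls by a gap of 0.83 of the range. Without these arrays in turn, the log2 change of Acta2 was 0.29 and that of Des -0.42, and neither passed (limma, adjusted p = 0.787 and 0.819).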

How the results depend on the processing

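Over 25 other settings, 0 members and 0 of their probe sets were called, and the lowest adjusted p of any member was 0.0708, for Acta2 with the replicate block (limma). The members' median ran from 0.05 to 0.40. Of 245 member values, 26 changed sign. Des was at 0.047 as deposited, 0.16 with array weights, 0.026 with the actin ratio as a covariate and 0.23 without smoke arrays 1 and 2. Tagln and Mylk were at -0.012 and -0.065 with median centring. Myh11 was at 0.11 under array weights. Leaving out smoke arrays 1 and 2, it was at 0.12 and Mylk at -0.013, and Mylk was at -0.13 as a mean of probe sets. Tagln and Cnn1 were at -0.57 and -0.22 with only the arrays numbered 1 to 4, both with and without the replicate block. Over single omissions Des ran from -0.42 to 0.21, Tagln from -0.23 to 0.42, Cnn1 from -0.10 to 0.69 and Mylk from -0.097 to 0.12.

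Genes called in the partner and marker lists, 0 in the reported comparison, became 1 as deposited, with array weights and as a mean of probe sets (Wnt2), 6 with the actin ratio, 10 with the arrays numbered 1 to 4 and 14 with the replicate block. The 14 were Srf, Tgfbi, Wnt2, Wnt5a, Tpm2 and Eng, which were higher, and Wwtr1, Pdgfra, Myh6, Tnni3, Sln, Csrp3, Mb and Clic5, which were lower. None of these list counts was tested against the share over all genes. Whether replicate numbers pair these mice is not known. Deviations of same-numbered arrays correlated at -0.02, 0.16, -0.07 and -0.08, without a comparison to arrays of unlike number. Over all genes, called genes were 94 lower and 3 higher, 142 and 41 with array weights, 220 and 151 with the actin ratio, 324 and 418 with the arrays numbered 1 to 4, and 341 and 421 with the replicate block. Acta2 had no value without _x_at and _s_at probe sets, and Cnn1, Des, Lmod1 and Myh11 none in the upper 40% by level. The causes of these shifts were not tested. No detection calls were used, so dim probe sets have no stated background.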

Other observations

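Marker lists of cells with no contractile role held 0 called genes (limma). Of 7 tested alveolar type 2 markers and 8 type 1 markers, 0 were called, with medians of 0.04 and -0.06; Sftpc, the surfactant protein C gene, was at 0.04 ± 0.09, with Abca3 and Sftpb at 0.29 ± 0.20 and 0.19 ± 0.29, and the type 1 genes Clic5, Aqp5 and Akap5 were at -0.56 ± 0.27, 0.42 ± 0.23 and -0.19 ± 0.17 (limma, adjusted p of 0.519 to 0.898). Of 10 endothelial markers 0 were called, with a median of -0.20. Calcrl, a receptor subunit for adrenomedullin, was at -0.28 ± 0.09 and below every control in 6 of 6 smoke arrays, as were 2.11% of all genes (limma, adjusted p = 0.325), and Cldn5 and Tek were at 0.27 ± 0.13 and -0.35 ± 0.24. Of 6 tested mesothelial markers 0 were called, with a median of -0.25, and Msln, which encodes mesothelin, was at -0.79 ± 0.37 and below every control in 6 of 6 smoke arrays (limma, adjusted p = 0.507), ahead of Lrrn4 and Upk3b at -0.74 ± 0.48 and -0.41 ± 0.40. Of 6 tested leukocyte markers 0 were called, with a median of -0.26, and Cd79a, Marco and Ptprc were at 0.98 ± 0.33, -1.28 ± 0.70 and -0.30 ± 0.16 (limma, adjusted p = 0.356, 0.557 and 0.564).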
